A study of Mus musculus with 29 samples.

Results

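Genes encoding 9 cytokine receptors of blood stem and progenitor cells were followed in RNA-seq of mouse hematopoietic stem cells (HSCs): Epor, Csf3r, Csf1r, Csf2ra, Il3ra, Csf2rb, Il6ra, Il6st and Il7r. They were chosen by gene symbol from the 55376 symbols counted in each library, so 9 genes of 55376 are described, and all 9 passed the filter on low counts that left 33690 genes to test. The study asked what loss of GADD45B and age do to HSCs, and 19 RNA-seq libraries were compared, 4 labelled young wild-type (YWT), 4 old wild-type (OWT), 4 young knockout (YKO) and 7 old knockout (OKO). The labels write the mutant genotype as Gadd45KO and give age only as young or old. Per the study's methods the knockout is a JAX line, bred and aged at the NIA animal facility, with no Cre driver named. In all groups the cells were sorted from bone marrow as lineage-negative, cKit+, Sca1+, CD34-, Flk2- and CD150+, with an antibody to the IL-7 receptor alpha chain among the lineage antibodies.

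Cytokine receptors of this kind have no kinase of their own, with 1 exception here. Ligand binding brings receptor chains together, the attached JAK kinases phosphorylate the chains and the STAT transcription factors that dock on them, and SOCS proteins, themselves STAT targets, switch the signal off. Epor (erythropoietin receptor) and Csf3r (G-CSF receptor) pair with themselves, Csf2ra and Il3ra bind GM-CSF and IL-3 and signal through the common beta chain Csf2rb, Il6ra binds IL-6 and signals through gp130 (Il6st), and Il7r pairs with the common gamma chain. Csf1r, which binds CSF1 and IL-34 and drives monocytes and macrophages, is the exception, a receptor tyrosine kinase.

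Library totals ran from 22197555 to 77970627 counted reads, with a median of 57562473. Titles of 8 libraries, all 4 OWT and 4 of the 7 OKO, begin with IB15, and those of the other 11 do not, so age in wild-type cells and this division cannot be told apart. OKO1 stood apart from the other libraries on the first principal component. Gadd45b, the targeted gene, was counted in each library, at 9.12, 17.5, 8.17 and 7.34 CPM (counts scaled by library size and TMM factor) in YWT, 10.1, 10.4, 15.5 and 10.2 in OWT, 12.7, 14.3, 5.98 and 5.14 in the libraries labelled YKO, and 2.84 to 6.94 (median 4.397) in the 7 labelled OKO. Its values in YWT and in the libraries labelled YKO overlapped, and the groups are taken by their labels throughout. The 14 HSC markers looked at, among them Procr, Hlf and Mecom, were above 0 in each library and summed to between 2966 and 6301 CPM. Markers of lymphoid progenitors summed to 127 to 530 CPM, of megakaryocytes to 451 to 2020 and of mast cells, basophils and eosinophils to 4.70 to 429, with 0 of 6 genes in each of these lists called in OKO vs YKO. In that comparison 1.29% of all tested genes were called. In bulk samples fewer cells of a type and less RNA per cell cannot be told apart.

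Per kilobase of exon, the receptor genes spanned more than 2 orders of magnitude. In YWT the levels were 22.9 ± 10.2 CPM per kb (SD, n = 4) for Epor, 19.999 ± 5.83 for Csf3r and 16.4 ± 1.93 for Csf2ra, and the libraries of these neighbours in the order overlapped. Il6st followed at 6.39 ± 1.46 and Csf1r at 4.73 ± 0.81 CPM per kb, again overlapping each other, with each Il6st value below each Csf2ra value. Il3ra (2.56 ± 0.37), Csf2rb (2.00 ± 0.61) and Il6ra (1.87 ± 0.64 CPM per kb) formed an overlapping set below Csf1r. Il7r was last at 0.157 ± 0.064 CPM per kb. Of 33226 tested genes with a known length, 91.0% had a lower YWT level than Epor, 71.9% than Csf1r and 26.4% than Il7r.

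The order at the top differed between groups. Csf3r led in OWT at 40.1 ± 17.4 CPM per kb (SD, n = 4), 2.49 times Csf2ra with no overlap, and in OKO at 46.0 ± 28.9 (SD, n = 7), where it overlapped Epor at 16.3 ± 11.5. Epor led in the libraries labelled YKO at 40.5 ± 10.95 (SD, n = 4), 2.62 times Csf3r at 15.5 ± 6.03, again with no overlap. Il6ra and Il7r held the last ranks in each of the 4 groups, with no overlap between them.

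**Figure D1:**
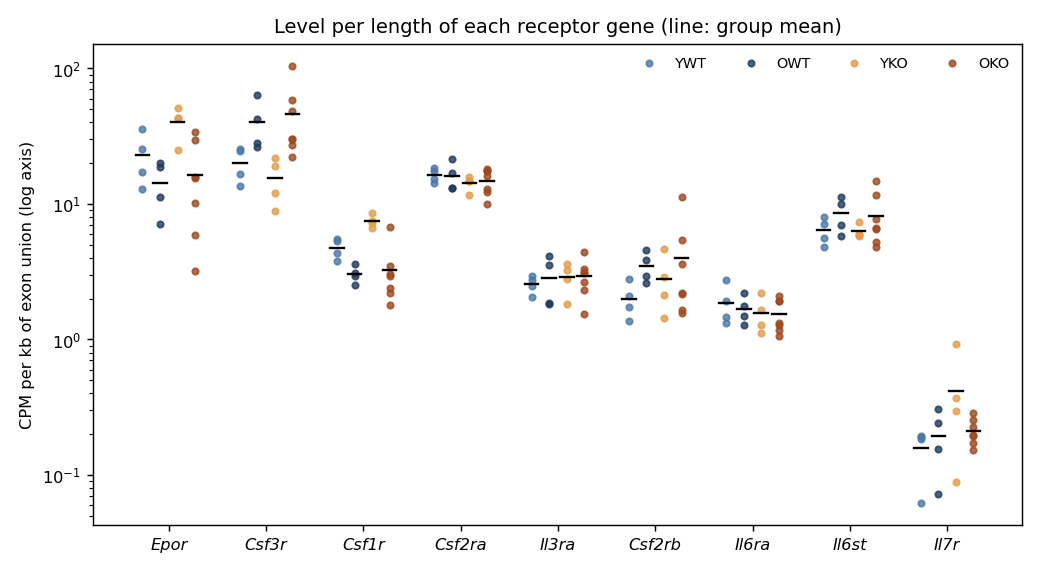
Level of each receptor gene in CPM per kb of exon union, on a log axis, with 1 point per library and a line at the group mean for YWT, OWT, YKO and OKO. Epor, Csf3r and Csf2ra lie highest, between group means of 14.2 and 46.0, and Il7r lies lowest, with group means from 0.157 to 0.419.

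Csf1r was the receptor gene whose difference passed the test, and it fell in OKO vs YKO. Its CPM was 30.5, 31.9, 24.9 and 21.9 in YWT. It was 20.8, 17.0, 17.8 and 14.6 in OWT. It was 43.5, 38.5, 49.7 and 41.5 in the libraries labelled YKO, and between 10.4 and 39.1 (median 16.9) in OKO. The YKO libraries thus lay above all YWT libraries and the OWT libraries below them, while 6 of 7 OKO libraries lay below each YKO library and OKO5, at 39.1, lay within the YKO range. Between OKO and YKO the log2 fold change was -1.21 (SE 0.26, edgeR quasi-likelihood test, Benjamini-Hochberg adjusted p = 0.0190), a level 2.32 times lower. In this comparison 1.29% of all tested genes were called, 0.692% as lower, and the median log2 fold change of all genes was 0.23, relative to which Csf1r was at -1.45. The exact permutation test, two-sided, gave p = 0.00909 for Csf1r, with 0.00303 the smallest p that 7 against 4 libraries allow, and an adjusted p of 0.171 over 36 tests.

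The Csf1r call was lost under some alternatives. It was lost without YKO1 (log2 fold change -1.18, edgeR adjusted p = 0.0771), without YKO3 (log2 fold change -1.08, edgeR adjusted p = 0.0728), when the 2 groups were fitted alone (log2 fold change -1.21, edgeR adjusted p = 0.0962) and with the 4 IB15 OKO libraries only (log2 fold change -0.86, edgeR adjusted p = 0.0997). Within the libraries without IB15 titles the 3 OKO libraries lay below all 4 YKO libraries, with p = 0.0286 by the two-sided exact permutation test, which can go no lower there, and the 4 OKO libraries with IB15 titles, at 16.9 to 39.1 CPM, lay above those 3. Summed markers of monocytes, macrophages and dendritic cells were at 538 to 592 CPM in YKO and 208 to 840 in OKO, where OKO5 had the highest sum, and 1 of the 12 (Cx3cr1) was called lower. Their part in the result was not tested. Of the Csf1r exons, 15.1% overlap exons of Hmgxb3 on the other strand, and without a stated strand setting reads there cannot be assigned.

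In the other comparisons the differences of Csf1r did not pass. Its log2 fold change was -0.64 in OWT vs YWT (SE 0.30) and 0.67 in YKO vs YWT (SE 0.30), with an edgeR adjusted p of 1 in both, which share the YWT libraries. In OKO vs OWT it was 0.09, with a 95% interval of -0.46 to 0.64.

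Csf3r, the receptor for the cytokine that drives neutrophil production, was at 48.9, 59.9, 91.1 and 88.7 CPM in YWT. It was at 153, 230, 101 and 94.7 CPM in OWT. In the libraries labelled YKO it was at 31.9, 43.7, 68.9 and 78.8, and in OKO between 79.8 and 377 (median 109). Each OWT library lay above each YWT library and each OKO library above each YKO library. The margin was narrow in both (94.7 against 91.1 and 79.8 against 78.8). The log2 fold change was 1.57 in OKO vs YKO (SE 0.40), and its edgeR adjusted p of 0.0502 missed the threshold. In OWT vs YWT it was 1.00 (SE 0.42, edgeR adjusted p = 1).

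The exact permutation test, two-sided, gave p = 0.0121 for Csf3r in OKO vs YKO and 0.0286, the smallest that 4 against 4 libraries allow, in OWT vs YWT, with an adjusted p of 0.171 for both. Csf3r and Csf1r were the 2 receptor genes without overlap in OWT vs YWT, Csf1r the 1 in YKO vs YWT and Csf3r the 1 in OKO vs YKO, where 4.13%, 5.12% and 2.60% of all tested genes had none. Summed granulocyte markers were at 609 to 898 CPM in OWT against 211 to 405 in YWT, and at 203 to 608 in OKO against 50.6 to 291 in the libraries labelled YKO. Their part in the result was not tested. In OKO vs YKO, 5 of these 10 markers had a log2 fold change above 0 and 5 below, with a median of -0.0058, and 1 was called, Prtn3, a granule protease, as higher. Over all tested genes, 0.597% were called higher there.

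The stretch upstream of the Csf3r start site, chr4:126024409-126024549 on the plus strand of GRCm38.p6 from RefSeq, is shown because Csf3r had the largest positive difference among the receptors in OKO vs YKO. It ends 110 bases before the start site and holds none of the motifs searched, which are spelled out with the stretches of Epor and Il7r, but the whole 300-base window of Csf3r holds 1 ETS match in the part not shown.
Csf3r: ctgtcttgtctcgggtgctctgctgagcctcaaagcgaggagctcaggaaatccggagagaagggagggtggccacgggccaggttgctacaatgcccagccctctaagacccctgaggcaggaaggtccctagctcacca

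Epor, the receptor through which erythropoietin keeps red cell precursors alive, varied widely within each group. Its CPM was 71.7, 50.4, 34.2 and 25.6 in YWT. It was 14.2, 37.1, 39.9 and 22.3 in OWT. In the libraries labelled YKO it was 85.1, 49.8, 101 and 85.7, and in OKO between 6.38 and 67.3 (median 30.8). OKO3 and OKO1 were lowest, and 5 of 7 OKO libraries lay below each YKO library, so these groups overlapped. The log2 fold change in OKO vs YKO was -1.31 (SE 0.45), with an edgeR adjusted p of 0.147. For this comparison the exact permutation test, two-sided, gave p = 0.0273 (adjusted 0.171). Against YWT, the log2 fold change of Epor was 0.82 in YKO (SE 0.52) and -0.68 in OWT (SE 0.52), and neither was called.

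Gata1, the erythroid regulator that activates Epor, was at 251, 118, 238 and 222 CPM in the libraries labelled YKO and between 5.27 and 179 in OKO, with OKO3 and OKO1 lowest there too. Its log2 fold change in OKO vs YKO was -1.61 (SE 0.62, edgeR adjusted p = 0.197). Summed erythroid markers were at 1636 to 4756 CPM in YKO, 681 to 2070 in YWT, 182 to 967 in OWT and 39.5 to 2573 in OKO, and 6 of 10 were called lower in OKO vs YKO, among them Alas2, the first enzyme of erythroid heme synthesis, and both alpha globin genes. Over all tested genes, 0.692% were called lower in this comparison. In YKO vs YWT all 10 erythroid markers had a log2 fold change above 0. There 1 of them, Alas2, was called higher (log2 fold change 2.22, edgeR adjusted p = 0.043), beside 0.0208% of all tested genes. The part of the erythroid markers in the Epor values was not tested.

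The 250 bases before the Epor start site, chr9:21963577-21963826 on the minus strand of GRCm38.p6 from RefSeq, are shown because the window holds a GATA motif. The capitals mark, in order, a RUNX motif (TGTGGT, here read on the other strand) and a GATA motif (AGATAA, also read on the other strand). Of 32851 promoters of 300 bases, 16.8% hold the RUNX and 11.2% the GATA letters on either strand, so neither match is rare.
Epor: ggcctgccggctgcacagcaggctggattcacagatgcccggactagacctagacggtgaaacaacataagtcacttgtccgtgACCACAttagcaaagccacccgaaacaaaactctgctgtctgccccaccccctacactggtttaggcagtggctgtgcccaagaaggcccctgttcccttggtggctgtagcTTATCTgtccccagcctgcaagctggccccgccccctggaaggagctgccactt

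**Figure D2:**
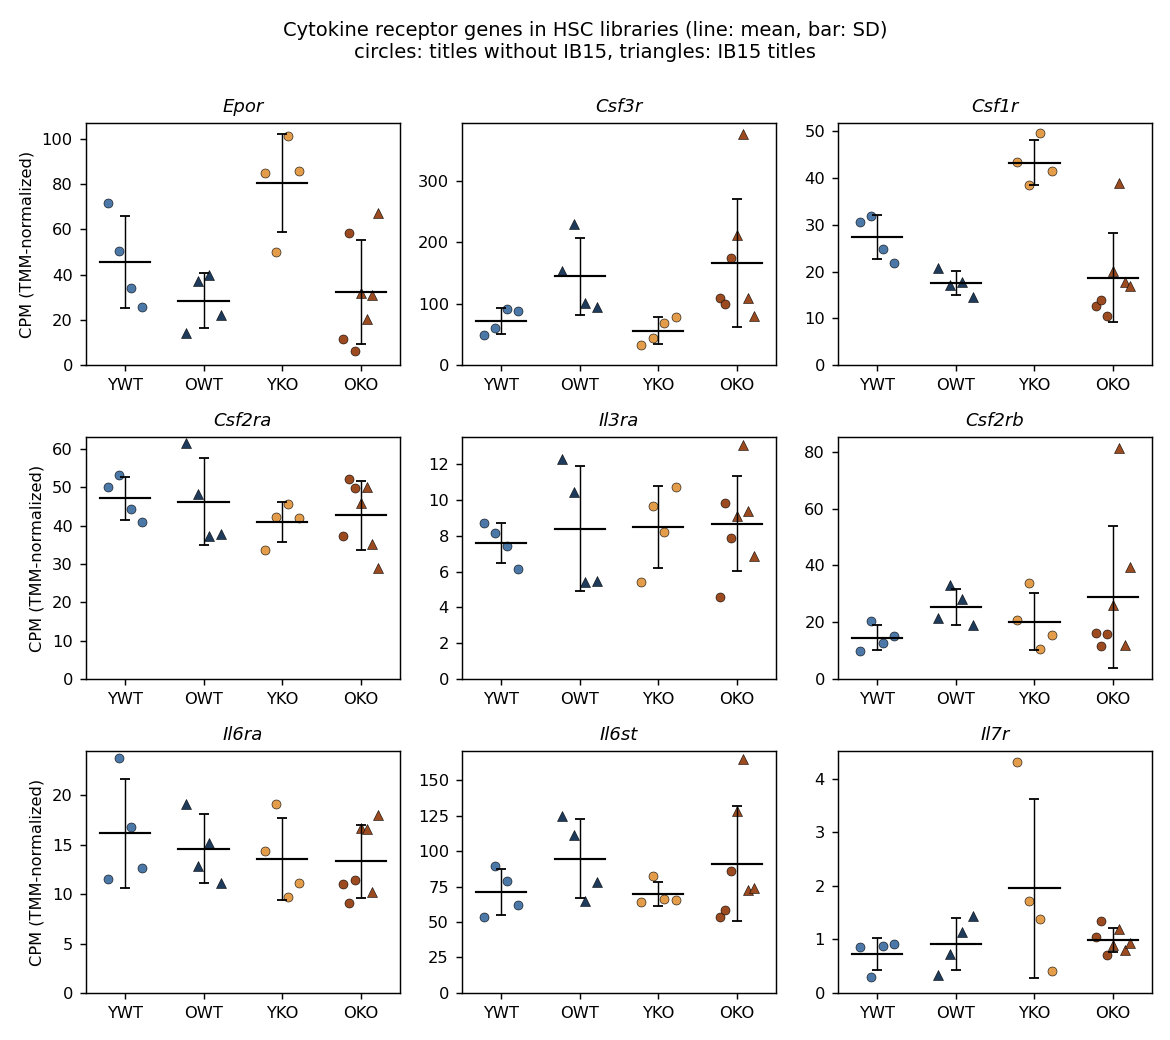
TMM-normalized CPM of the 9 receptor genes in each library by group, with the mean as a line and the SD as a bar; circles are titles without IB15 and triangles IB15 titles. The Csf1r points of YKO (38.5 to 49.7) lie above all others except OKO5 (39.1), and OKO5 is also the highest point for Csf3r, Csf2rb, Il3ra and Il6st.

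Of the alpha chains, Csf2ra was the steadiest. Csf2ra was at 41.0 to 53.3 CPM in YWT, 37.4 to 61.5 in OWT, 33.6 to 45.7 in the libraries labelled YKO and 28.8 to 52.3 in OKO. All 4 ranges overlapped, and the 95% intervals of its log2 fold change in the 4 comparisons between groups lay between -0.65 and 0.46. Il3ra, the IL-3 binding chain, was at 6.14 to 8.71 CPM in YWT, 5.40 to 12.3 in OWT, 5.43 to 10.7 in YKO and 4.57 to 13.1 in OKO, and its groups overlapped as well. Il6ra was at 11.5 to 23.7, 11.1 to 19.1, 9.70 to 19.1 and 9.11 to 18.03 CPM in the same order of groups, with no group apart.

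Il7r, needed by early lymphoid cells, was barely counted in these cells, which the sort selects against on the protein it encodes. Its counts were between 12 and 91 reads per library. Its CPM was 0.855, 0.289, 0.883 and 0.908 in YWT. It was 0.340, 0.730, 1.13 and 1.44 in OWT. In the libraries labelled YKO it was 4.31, 1.71, 1.38 and 0.411, and in OKO between 0.713 and 1.34 (median 0.925). YKO1 was the highest of all 19 and YKO4 below each OKO library, so YKO overlapped every other group.

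The log2 fold change of Il7r was 1.39 in YKO vs YWT (SE 0.58, edgeR adjusted p = 0.953) and -0.96 in OKO vs YKO (SE 0.49, edgeR adjusted p = 0.346). Both rested largely on YKO1, without which they were 0.63 (edgeR adjusted p = 1) and -0.20 (edgeR adjusted p = 0.915). Summed B cell markers were at 205 to 1587 CPM in YKO, 232 to 730 in YWT, 76.2 to 262 in OWT and 34.4 to 258 in OKO, and 6 of 10, Pax5 and Ebf1 among them, were called lower in OKO vs YKO. Markers of T, NK and innate lymphoid cells summed to 122 to 256 CPM in YKO and 69.6 to 293 in OKO, with 3 of 10 called lower and 1 higher. Over all tested genes, 0.692% were called lower and 0.597% higher in OKO vs YKO. The part of B, T, NK and innate lymphoid cells in the Il7r values was not tested.

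The 164 bases before the RefSeq start site of Il7r, chr15:9529877-9530040 on the minus strand of GRCm38.p6, are shown. They lie inside the GENCODE M21 gene model, which starts further upstream at 9530176, and outside its exons. This is the only stretch here with a STAT motif (TTCNNNGAA, in capitals), a motif found in 8.30% of the 32851 promoters. CEBP letters (TTGCNNAA, 10.8%) and ETS letters (GAGGAA, 28.3%) were also searched on both strands, and the whole 300-base window of Il7r holds 1 CEBP and 1 RUNX match outside the stretch shown.
Il7r: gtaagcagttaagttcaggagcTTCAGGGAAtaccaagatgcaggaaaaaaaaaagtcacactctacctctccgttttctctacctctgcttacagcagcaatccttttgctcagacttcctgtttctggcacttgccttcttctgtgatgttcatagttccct

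The shared signal transducers did not pass the test in any comparison. Csf2rb was at 9.94, 20.3, 12.6 and 15.3 CPM in YWT. It was at 21.4, 33.0, 28.1 and 19.1 in OWT. In the libraries labelled YKO it was at 20.9, 33.9, 10.4 and 15.5, and in OKO between 11.4 and 81.4 (median 16.0). Of the OWT libraries, 3 of 4 lay above each YWT library, and OKO5 was far above the rest. The log2 fold change in OWT vs YWT was 0.81 (SE 0.50, edgeR adjusted p = 1), and its sign turned when the IB15 title was a covariate (-0.65). The title effect in that fit comes from OKO alone, the only group with both kinds of title. The value of -0.65 therefore does not separate age from title. Csf2rb shares 7.15% of its 75-base windows with the neighbouring paralog Csf2rb2, so part of its reads may be divided between them.

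Il6st, the gp130 chain used by IL-6, IL-11, LIF and oncostatin M, was at 53.4 to 89.6 CPM in YWT and 64.6 to 124 in OWT. It was at 64.5 to 82.1 in the libraries labelled YKO and 53.8 to 165 in OKO. The groups overlapped in each comparison, and the log2 fold change with the lowest edgeR adjusted p was 0.39 in OKO vs YKO (SE 0.27, adjusted p = 0.499). OKO5 and OKO4 were highest.

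Over the 9 receptors, edgeR called 0 in OWT vs YWT, 0 in YKO vs YWT, 1 in OKO vs YKO and 0 in OKO vs OWT, where 0.00297%, 0.0267%, 1.29% and 0.0327% of all tested genes were called. DESeq2 called 0, 0, 3 and 0. Its own shares of all genes are not given here, so these counts cannot be set against the edgeR shares. At an unadjusted edgeR p under 0.05 there were 2, 2, 3 and 0 receptors, against 4.38%, 4.59%, 15.8% and 8.14% of all genes. The genotype by age interaction called 0 receptors and 0% of all genes, with 0 receptors at an unadjusted p under 0.05 against 4.62% of all genes, and DESeq2 called 0. The median log2 fold change of the receptors was 0.14, 0.17, 0.03 and 0.09 in the 4 comparisons, beside -0.05, -0.02, 0.23 and 0.12 over all genes.

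Old knockout and old wild-type cells gave the closest receptor values. In OKO vs OWT the 9 log2 fold changes lay between -0.13 and 0.20, with 95% intervals reaching from -0.92 to 1.16, and no receptor separated the groups, where 0.819% of all genes did. Within the IB15 titles, the 4 OKO and 4 OWT libraries overlapped for each of the 9. The intervals of Csf1r, Csf2ra, Il3ra, Il6st and Il6ra in OKO vs OWT lay between -0.66 and 0.64, and those of Epor, Csf2rb, Csf3r and Il7r were wider.

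**Figure D3:**
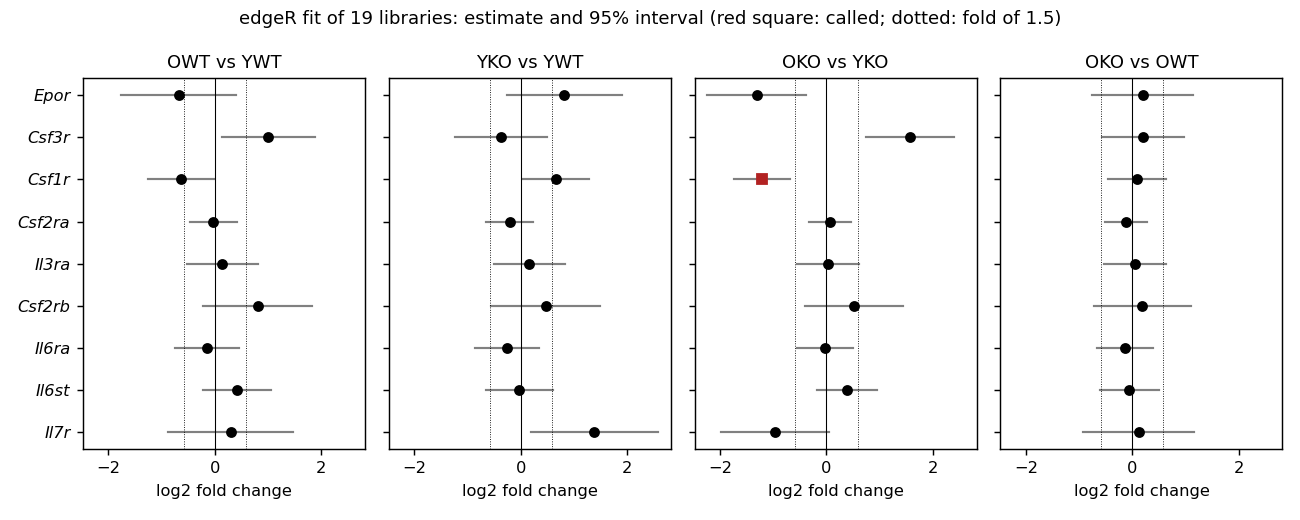
Log2 fold change of each receptor gene in the 4 comparisons from the edgeR fit of 19 libraries, with 95% intervals as lines, dotted lines at a fold of 1.5 and a red square where the gene was called. Csf1r in OKO vs YKO (-1.21) is the 1 red square, and the OKO vs OWT points lie between -0.13 and 0.20.

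The receptors did not move as a block across the 19 libraries, which include the group differences and share depth and composition. Among 36 pairs, Spearman's rho was highest for Csf2rb with Il6ra (0.658), Csf2ra with Il3ra (0.628) and Csf2rb with Il6st (0.598), and lowest for Epor with Csf3r (-0.726) and Csf1r with Csf3r (-0.544). Among 11242 genes of sufficient level, those most like Epor were Nek2, Mybl2 and Stx2 (rho 0.984 each). Csf3r was most like Nupr1 (0.965), Alcam (0.961) and Gda (0.960), and Csf1r most like Sipa1 (0.933), Kat14 (0.904) and Evl (0.902). Csf2ra was most like Dtx3 (0.907), Vamp2 and Ip6k2, Il3ra most like Spata2l (0.921), Vwf and 2210411M09Rik, and Csf2rb most like Fndc3b (0.847), Mical1 and Ficd. Il6st was most like Sft2d2 (0.900), Hid1 and Gm26782, Il6ra most like Man1a (0.893), Fam214a and Gcc1, and Il7r most like the immunoglobulin segments Ighv1-19 (0.875), Ighv5-4 (0.716) and Ighv5-9 (0.673).

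Of the chains that partner these receptors, 1 of 11 rose in OKO vs YKO, where 0.597% of all tested genes were called as higher. Osmr, which joins gp130 in the oncostatin M receptor, was at 5.20, 2.12, 4.97 and 6.49 CPM in YWT and 19.96, 20.9, 8.18 and 9.07 in OWT. In the libraries labelled YKO it was at 2.18, 3.31, 3.11 and 4.34, and in OKO between 7.56 and 44.9 (median 20.5), above each YKO library. Its log2 fold change in OKO vs YKO was 2.82 (SE 0.45, edgeR adjusted p = 0.00228). In OWT vs YWT it was 1.63 (SE 0.46, edgeR adjusted p = 0.437), with each OWT library above each YWT library.

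Downstream of the receptors, no JAK or STAT gene was called in any of the 4 comparisons or in the interaction. In OKO vs YKO the log2 fold change of Stat5b was -0.47 (SE 0.21, edgeR adjusted p = 0.283) and that of Stat3 0.35 (SE 0.24, edgeR adjusted p = 0.487). Jak2, the kinase bound by Epor and Csf2rb, was at -0.14 (SE 0.19), Jak1 at -0.06 and Jak3 at 0.31. Of 20 inhibitors 1 rose, Socs3, the brake on gp130 and the G-CSF receptor, where 0.597% of all tested genes were called as higher.

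Socs3 was at 11.02, 11.4, 14.1 and 22.4 CPM in the libraries labelled YKO and between 23.8 and 360 (median 46.0) in OKO, with each OKO library above each YKO library. The log2 fold change was 2.85 (SE 0.72), and its edgeR adjusted p of 0.0498 was just inside the threshold. Whether the calls of Socs3, Osmr, Myc and Irf8 hold under the alternatives run for the receptors was not tested. Among 11 STAT targets Socs3 is counted again and Myc, a driver of growth and division, fell by 1.09 on the log2 scale (SE 0.27, edgeR adjusted p = 0.0449), from 502 to 767 CPM in YKO to 135 to 486 in OKO, with no overlap. In this comparison 1.29% of all tested genes were called and 2.60% had no overlap.

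Of 10 transcriptional regulators, 1 fell in OKO vs YKO, where 0.692% of all tested genes were called as lower. Irf8, required for monocytes, dendritic cells and B cells, had a log2 fold change of -2.36 (SE 0.42, edgeR adjusted p = 0.00576). It was at 23.1 to 164 CPM in YKO and 7.56 to 25.0 in OKO. The groups overlapped, and YKO1 and YKO2, the libraries highest in Irf8, were also the highest of all in summed B cell markers. Their part in these values was not tested. Of 15 ligands tested, edgeR called 0 in OKO vs YKO, with 3 at an unadjusted p under 0.05. Over all tested genes these shares were 1.29% and 15.8%. In the other 3 comparisons between groups and in the interaction edgeR called 0 genes of these pathway lists.

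**Figure D4:**
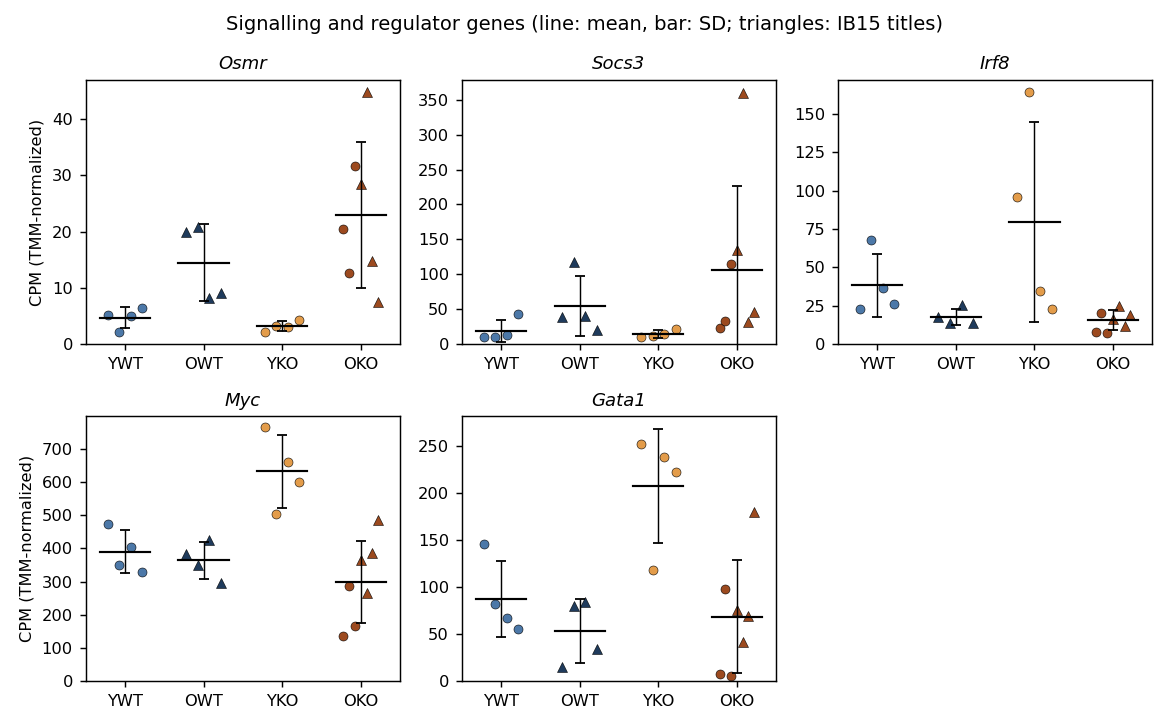
TMM-normalized CPM of Osmr, Socs3, Irf8, Myc and Gata1 in each library by group, with mean (line) and SD (bar, drawn down to 0 only); triangles are IB15 titles. Osmr and Socs3 lie higher in each OKO library than in each YKO library, Myc lower, and Irf8 and Gata1 overlap between these groups.

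**Figure D5:**
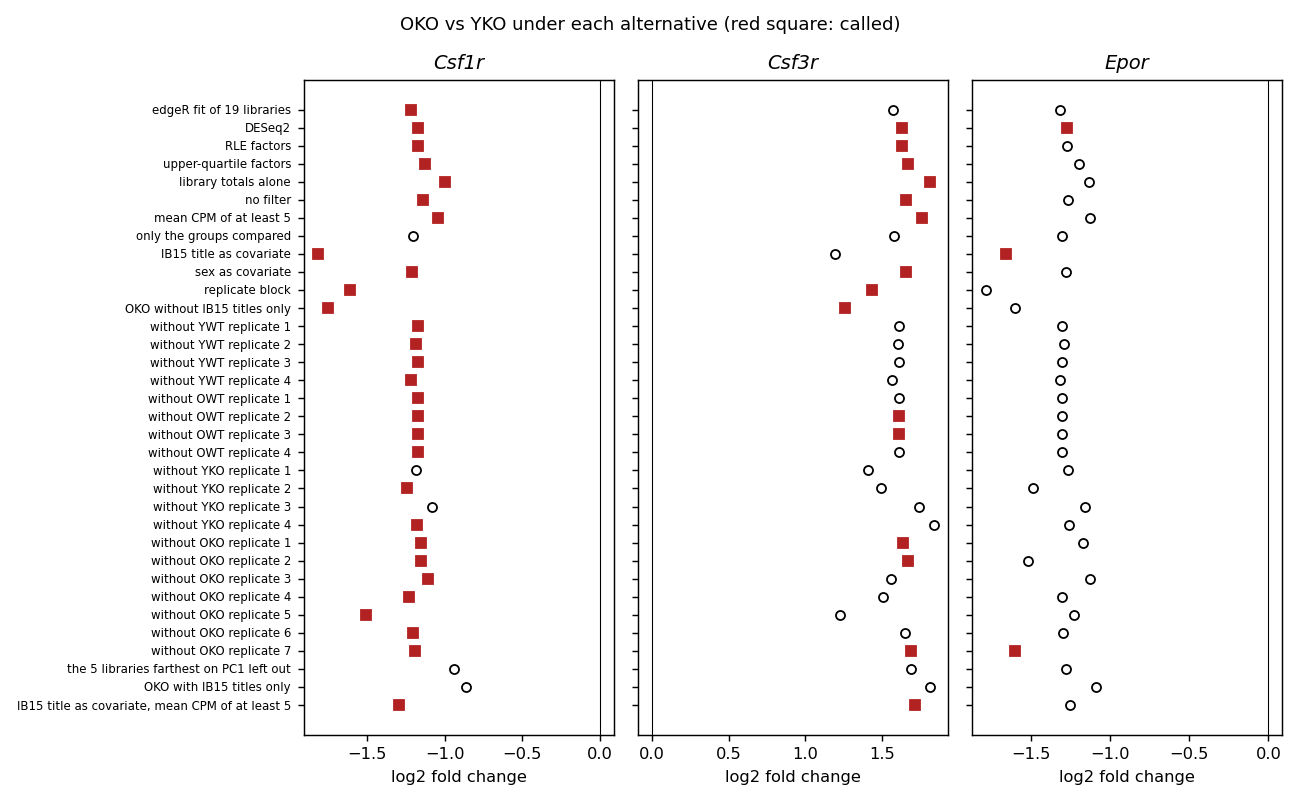
Log2 fold change of Csf1r, Csf3r and Epor in OKO vs YKO under each alternative, red squares where the gene was called and open circles where it was not. Csf1r stays between -1.82 and -0.86, Csf3r between 1.19 and 1.84 and Epor between -1.78 and -1.09.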

How the data were processed

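The authors trimmed the reads with Trim Galore 0.4.3, aligned them with STAR to mm10 and deposited, per library, the raw read count of each gene symbol from featureCounts. Whether strand was used is not given in the sources used here. Libraries were prepared with the SMART-Seq v4 kit. The 10 bisulfite samples were not analysed here.

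Counts of all 19 libraries were filtered with filterByExpr, normalized by TMM and fitted in R 4.3.3 with the quasi-likelihood test of edgeR 4.0.16, with 1 mean per group and no covariate. Genes were called at a Benjamini-Hochberg adjusted p under 0.05 over 33690 genes and a fold change over 1.5 (interaction: adjusted p alone). The study used a count model at the same thresholds, and DESeq2 1.42.0 was run as an alternative. The study's methods list more OWT and YKO samples than the libraries used here, so its numbers of genes called are not compared. CPM values were normalized by TMM. Levels between genes were compared per kb of the GENCODE M21 exon union, and exact permutation tests used log2(CPM + 1) in SciPy. No label ties libraries to separate animals, so p-values measure the spread between libraries. No 2 libraries of a group agreed within sampling noise. In counts simulated from these libraries, edgeR recovered 190 of 200 changed genes among 31926 in OKO vs YKO, with 8 calls on unchanged genes. The changed genes had a mean above 5 CPM and a set fold larger than any estimated for a receptor here. No difference between title sets was simulated. These numbers therefore do not give the power for smaller folds or for Il7r.

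The members and lists were chosen with earlier results of these data known. Genes named are the 9 receptors, Gadd45b, Jak and Stat genes (a selection of values), genes called in the pathway lists (some list genes are not reported here), and the 3 genes of mean log2 CPM of at least 3 most like each receptor. Gata1 and single markers were named after their values were seen. The marker lists are those of HSCs, B cells, lymphoid progenitors, T, NK and innate lymphoid cells, monocytes, macrophages and dendritic cells, granulocytes, erythroid cells, megakaryocytes, and mast cells, basophils and eosinophils.

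The labels give female for all libraries. The study's sample table, matched to all 19 by library total, lists 8 as male, and Y-linked counts match it in 16 of 19. Alternatives were DESeq2, RLE and upper-quartile factors, library totals alone, no filter on low counts, a minimum mean CPM of 5, calls on adjusted p only, fits restricted to the groups compared, IB15 title and sex as covariates, a replicate block, OKO of 1 title set, and leaving out each library. The 3 named as such with the results were added after the data were seen. All alternatives were read for the 9 receptors only, not for the other genes called. Promoters are those of RefSeq on GRCm38.p6, used for 7 of the 9 receptors, and Csf1r and Csf2rb have none shown.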

Additional observations from a re-analysis of the deposited data

Results flagged for a closer look

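In groups of 4 to 7 libraries, a value was singled out where its gap to the nearest other library was a large part of the group's range (Dixon's 95% critical value). Of 56 groups of values over 14 genes, 6 were singled out, and chance singles out about 1 in 20, or 2.8. In OKO5, Csf1r was at 39.05 CPM with the next OKO library at 20.16, Csf2rb at 81.35 with the next at 39.56, and Socs3 at 359.8 with the next at 135.5, so 3 of the 6 fell in 1 library. Socs3 was also at 43.09 CPM in YWT4, with the next YWT library at 12.63. Il6st was at 82.11 CPM in YKO2, with the next YKO library at 66.43. Il7r was at 0.2895 CPM in YWT2, from 12 reads, with the next YWT library at 0.8549. Without OKO5, Csf1r in OKO vs YKO had a log2 fold change of -1.503 (edgeR adjusted p = 0.000278).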

How the results depend on the processing

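In OKO vs YKO edgeR called 1 receptor (Csf1r), and the other 3 comparisons between groups and the interaction stayed at 0 under each alternative run. In OKO vs YKO the count was 2 (Csf1r and Csf3r) with RLE factors, upper-quartile factors, library totals alone, no filter on low counts, a minimum mean CPM of 5, sex as covariate, and OKO without IB15 titles. It was 2 (Csf1r and Epor) with IB15 title as covariate, 3 (with Epor) with DESeq2 and 0 with only the groups compared. Replicate numbers did not pair the libraries (correlations of same-numbered deviations from -0.47 to 0.304), and with the replicate block the count was 2. Of alternatives chosen after seeing the data, it was 0 without the 5 libraries farthest on the first principal component and 0 with OKO of IB15 titles only, and 3 (Csf1r, Csf2ra and Csf3r) with IB15 title as covariate and a mean CPM of at least 5. Leaving out each library gave 0 to 3, with 0 without YKO1 or YKO3, 2 without OWT2, OWT3, OKO1 or OKO2, and 3 without OKO7. The edgeR and DESeq2 adjusted p of Csf1r ran from 0.000132 to 0.114. The cause of these changes was not tested, beyond that fits of fewer libraries hold fewer samples. The share of all tested genes called is given here only for the edgeR fit of 19 libraries (1.29%). Whether the receptor counts followed a change in that share was not tested.

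Of 45 log2 fold changes of a receptor in a comparison, 27 took another sign under some alternative. Of these, Csf2ra in OKO vs YKO was called with IB15 title as covariate and a mean CPM of at least 5. Its sign had not turned there. None of the 27 was called in the edgeR fit of 19 libraries, and no value of another sign was called. With DESeq2 and with RLE factors these were 0.025 and 0.024 for Il6ra in OKO vs YKO, 0.013 for Csf2ra and 0.056 for Il6st in OKO vs OWT, and 0.059 for Il6st in the interaction (the same for both where 1 value is given). With upper-quartile factors they were 0.0015 for Il6st in YKO vs YWT, 0.091 for Il6ra in OKO vs YKO, 0.13 for Csf2ra, 0.14 for Il6st and 0.077 for Il6ra in OKO vs OWT, and 0.078 for Il3ra and 0.13 for Il6st in the interaction. With library totals alone they were 0.24 for Il6ra in OKO vs YKO, 0.23 for Csf2ra, 0.18 for Il6st and 0.13 for Il6ra in OKO vs OWT, and 0.18 for Il3ra and 0.25 for Il6st in the interaction. With no filter, Il6ra was 0.060 in OKO vs YKO and Il6st 0.061 in the interaction. With a mean CPM of at least 5, they were 0.16 for Il6ra in OKO vs YKO, 0.18 for Csf2ra, 0.17 for Il6st and 0.11 for Il6ra in OKO vs OWT, and 0.16 for Il3ra and 0.22 for Il6st in the interaction. With only the groups compared, Csf2ra was 0.0021 and Il6st 0.029 in OKO vs OWT. With sex as covariate, Csf2ra was 0.00075 in OWT vs YWT.

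With IB15 title as covariate, the values in OWT vs YWT use a title effect that comes from OKO alone and do not separate age from title. There they were 0.19 for Csf2ra, -0.65 for Csf2rb, -0.23 for Il3ra and -0.32 for Il6st. In OKO vs YKO they were -0.48 for Csf2rb, -0.20 for Il3ra and -0.073 for Il6st, and in OKO vs OWT 0.22 for Il6st and 0.078 for Il6ra. In the interaction they were -0.0056 for Csf2ra, 0.17 for Csf2rb, 0.030 for Il3ra and 0.25 for Il6st. With that covariate and a mean CPM of at least 5 they were 0.60 for Csf2ra and -0.16 for Csf2rb in OWT vs YWT, 0.15 for Il6ra in OKO vs YKO, 0.26 for Il6st and 0.12 for Il6ra in OKO vs OWT, and 0.19 for Csf2rb, 0.12 for Il3ra and 0.31 for Il6st in the interaction. With the replicate block they were -0.12 for Csf2rb and -0.13 for Il3ra in OKO vs YKO, and -0.18 for Epor, -0.30 for Csf1r, 0.0065 for Csf2ra, -0.51 for Csf2rb, -0.069 for Csf3r and -0.090 for Il3ra in OKO vs OWT. With OKO without IB15 titles they were -0.41 for Csf2rb, -0.14 for Il3ra and -0.0063 for Il6st in OKO vs YKO. With OKO of IB15 titles they were 0.24 for Il6st and 0.11 for Il6ra in OKO vs OWT, 0.21 for Csf2rb, 0.050 for Il3ra and 0.27 for Il6st in the interaction, and -0.0091 for Csf2ra and 0.22 for Il6ra in OKO vs YKO. Without the 5 libraries they were -0.021 for Csf2ra and 0.40 for Il6ra in OKO vs YKO, 0.22 for Il6st and 0.081 for Il6ra in OKO vs OWT, and 0.52 for Csf2rb, 0.18 for Il3ra and 0.39 for Il6st in the interaction.

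With each library left out, signs also turned in OWT vs YWT for Csf2ra (-0.18 to 0.066), Il6ra (-0.29 to 0.094), Il3ra (-0.091 to 0.30) and Il7r (-0.030 to 0.61), in YKO vs YWT for Il6st (-0.17 to 0.073) and Il3ra (-0.00097 to 0.30), and in OKO vs YKO for Il6ra (-0.11 to 0.22) and Il3ra (-0.10 to 0.22). In OKO vs OWT they turned for Epor (-0.091 to 0.40), Csf1r (-0.20 to 0.20), Csf2ra (-0.18 to 0.068), Csf2rb (-0.33 to 0.34), Csf3r (-0.14 to 0.53), Il3ra (-0.085 to 0.31), Il6st (-0.26 to 0.12), Il6ra (-0.22 to 0.035) and Il7r (-0.17 to 0.47), and in the interaction for Csf2rb (-0.81 to 0.12), Il3ra (-0.25 to 0.16), Il6st (-0.23 to 0.17) and Il6ra (-0.088 to 0.36). Without any 1 library Il7r was 0.63 to 1.68 in YKO vs YWT and -1.24 to -0.20 in OKO vs YKO, the values nearest 0 being those without YKO1. Depth limits Il7r, with at most 91 reads in a library.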
